A study of Danio rerio with 31 samples.

Results

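Respiratory complex I is read here through the 50 gene IDs whose symbol begins with nduf in any letter case, of 32520 gene IDs in the count tables. They are 7 nuclear core subunits, 31 accessory subunits, 8 assembly factors (NDUFAF1 to NDUFAF8) and 4 genes of the ndufa4 group. Membership was set by symbol alone and used no measured value. The RNA was of whole brain from 24 zebrafish, all adults of TU, a laboratory strain. The 6 F0 treated males had been exposed to a mixture of polychlorinated biphenyls and polybrominated diphenyl ethers, and 6 F0 males were unexposed controls. The F2 fish were themselves unexposed: 4 females and 2 males came from the treated line, and 4 females and 2 males from the control line. Dose, route, age, family and tank of the fish were not used here, so any such difference between arms, lines or generations cannot be told apart from the exposure, the descent or the generation.

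Complex I is the entry point of electrons from NADH into the respiratory chain of mitochondria, and it pumps protons across the inner membrane. Its N module oxidises NADH, its Q module passes the electrons to ubiquinone, and its membrane arm carries the pumps, whose core subunits are encoded by mitochondrial DNA in vertebrates. Accessory subunits stabilise this core, and assembly factors help to build the enzyme without staying in it. NDUFA4, named as a complex I subunit, is now counted to cytochrome c oxidase (complex IV). Brain depends heavily on oxidative metabolism, and these roles are known mainly from mammals.

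Levels are CPM, counts scaled to library size (TMM factors over all 24 fish), and they compare fish for 1 gene and not genes with each other, because no gene lengths were used. Changes are log2 fold changes with their standard error (SE) from edgeR's quasi-likelihood test, with Benjamini-Hochberg adjustment over all genes tested at 0.05. Each fish had 12.2 to 34.1 M reads in genes, of which the members took 0.527 to 0.845%. The 48 members tested within each generation had between 40 and 29298 reads in each fish. NDUFS1, the largest core subunit of the N module, had 5 reads over all fish and none in 22 of the 24, and the reason was not tested. The member ndufa4l2b had 65 reads over all fish and none in 18. Neuron, oligodendrocyte and radial glia marker lists had summed levels of 5084 to 6998 CPM, 11720 to 20889 CPM and 3200 to 6300 CPM over the groups.

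The summed level of the 50 members was 5689, 6253 and 9447 CPM in F0 treated males (lowest, median, highest), against 4777, 5158 and 5901 CPM in F0 control males. The groups overlapped, because treated male 2 lay below control male 15. The highest value was that of treated male 16, and the other 5 treated males averaged 6323 ± 581 CPM (SD, n = 5). In F2 females the sum averaged 6830 ± 967 CPM in the treated line and 6660 ± 628 CPM in the control line (SD, n = 4 each). The 2 F2 males of the treated line had 7244 and 7438 CPM, and those of the control line had 8012 and 7544 CPM.

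**Figure D1:**
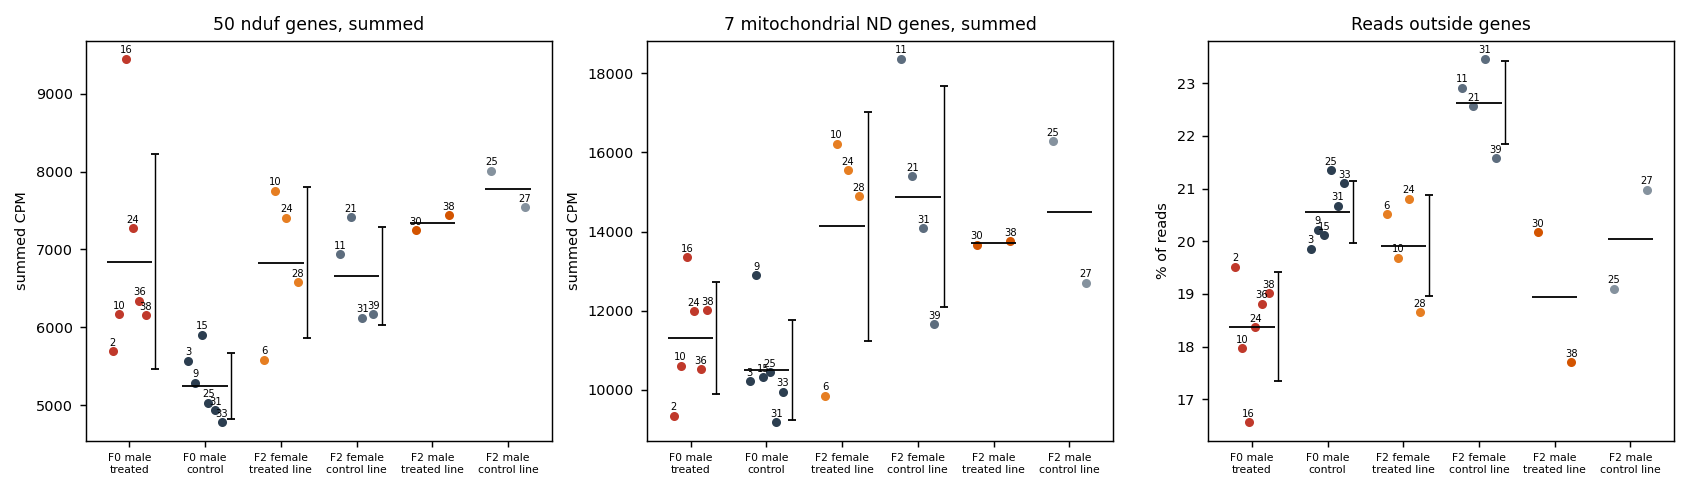
Summed CPM of the 50 nduf genes, summed CPM of the 7 mitochondrial ND genes, and the share of uniquely aligned reads that lay outside genes (%), for each fish in 6 groups. Points are fish with their numbers, lines are group means and error bars are SD (groups of more than 2 fish). F0 treated male 16 had the highest nduf sum (9447 CPM) and the lowest share of reads outside genes (16.6%).

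Some complex I genes rose in F0 treated males relative to F0 control males, among both core and accessory subunits, and none fell. Of 48 members tested, 13 were higher and 0 lower, which is 27.1% higher against 6.32% of all 18057 genes tested (5.09% of all genes were lower). The log2 fold change was above 0 in 47 of the 48, against 48.6% of all genes, and its median was 0.36, against -0.02 over all genes. Members moved together within a fish, so such counts, here and in the comparisons below, are not counts of independent observations. An unadjusted p under 0.05 was reached by 37 members, against 29.6% of all genes. Those that rose were 3 of 6 core subunits (NDUFV1, NDUFV2, NDUFS8) and 10 of 31 accessory subunits (NDUFS5, NDUFA12, NDUFA6, NDUFA3, NDUFA9, ndufa9b, NDUFB4, NDUFB8, NDUFB9, NDUFAB1). In whole brain, more cells of a type and more RNA per cell cannot be told apart, nor can fewer cells and less RNA per cell. None of the 8 assembly factors and none of the 3 tested genes of the ndufa4 group passed.

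This result moved with a property of the libraries. The share of reads outside genes was 16.6 to 19.5% in F0 treated males and 19.9 to 21.4% in F0 control males, without overlap. With that share in the fit, 0 of 48 members passed in edgeR and none reached an unadjusted p under 0.05. The log2 fold change was then below 0 in 43, and the median was -0.15, against 0.03 over all genes. No gene of the 18057 passed either. The squared correlation of arm and this share was 0.67, so this fit could hardly show an arm effect. Exposure and this library property cannot be told apart in these 12 fish. The count also moved with single fish. It was 0 without treated male 24, control male 25 or control male 33. In these fits 515, 748 and 440 of all genes passed, against 2060 with all fish. The count was 1 without control male 9 (615 genes passed) or control male 31 (807 genes), and 6 without treated male 36 (1198 genes). It was 11 without treated male 10 (1390 genes) or control male 3 (1543 genes), and 13 without treated male 38 (1425 genes). Without treated male 16 it was 14 (1820 genes), and without control male 15 it was 17 (2047 genes). Without treated male 2 it was 32 (3217 genes). The median stayed between 0.24 (without treated male 16) and 0.41. Photoreceptor markers (12 IDs, 2 of them under 1 CPM throughout each F0 group) summed to 319 to 541 CPM in treated males and 4.09 to 434 CPM in control males, with control males 9 and 33 at 7.54 and 4.09 CPM. Without those 2 fish and treated male 16 the count was 0 and the median 0.21, and 42 of 18473 genes passed. Of 11 neuron markers tested, 3 were lower and 1 higher in treated males, 9 had a change below 0 and the median was -0.18; their summed level was 5315 to 6449 CPM in treated males and 5739 to 6998 CPM in control males. GAD2, a GABA synthesis enzyme on that list, was chosen after its values were seen. It had 220 to 360 CPM in treated males and 379 to 533 CPM in control males (lowest and highest). Over all genes, 2.59% were without overlap and lower in treated males. The changes of the neuron markers ran from -1.89 to 0.48, so GAD2 does not stand for the list. No tested marker of oligodendrocytes, radial glia, microglia, photoreceptors, erythrocytes, muscle or epidermis passed in edgeR. The part of these markers in the result was not tested.

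**Figure D2:**
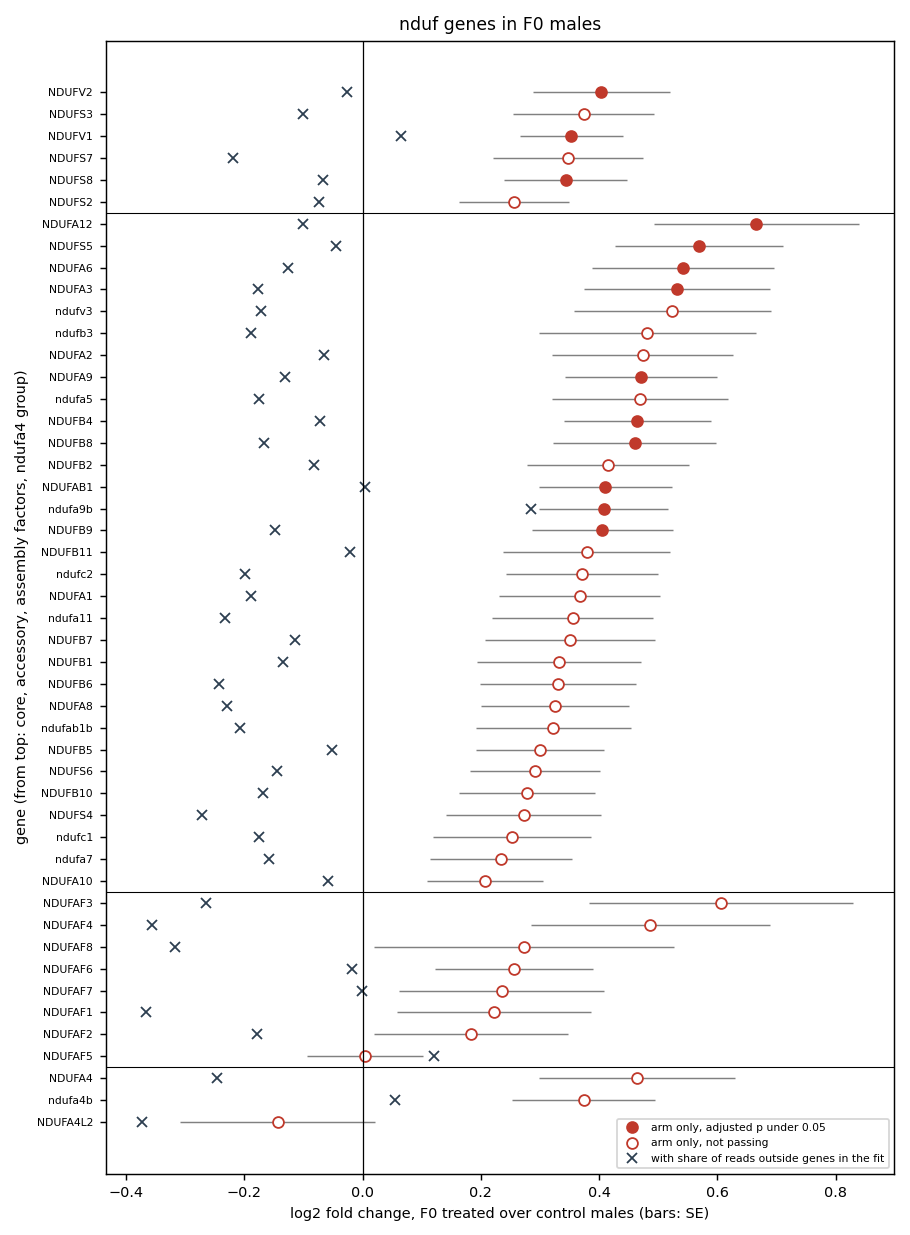
Log2 fold change of F0 treated over control males for the 48 members tested, by role; bars are SE. Filled circles are the 13 members with an adjusted p under 0.05, and open circles the others. Crosses are the same genes with the share of reads outside genes in the fit. There 43 of 48 lay below 0, and none reached an unadjusted p under 0.05 in edgeR.

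Among the core subunits, NDUFV1, which binds NADH and the flavin cofactor, had 277, 324 and 405 CPM in F0 treated males (lowest, median, highest), against 245, 259 and 274 CPM in F0 control males. The groups did not overlap. Its log2 fold change was 0.35 (SE 0.09, edgeR adjusted p = 0.024), and all 6 treated males exceeded the mean of the control males. NDUFV2, its iron-sulfur partner in the N module, had 125, 143 and 196 CPM in treated males, against 92.1, 113 and 129 CPM in control males. The groups overlapped at their edges, and the change was 0.40 (SE 0.12, edgeR adjusted p = 0.039). NDUFS8, an iron-sulfur subunit of the Q module, had 164, 183 and 252 CPM in treated males, against 135, 152 and 172 CPM in control males. Its change was 0.34 (SE 0.10, edgeR adjusted p = 0.046). NDUFS3, another Q module core subunit, just missed the threshold, with 133, 145 and 225 CPM in treated males, against 114, 120 and 140.0 CPM in control males (log2 fold change 0.37, SE 0.12, edgeR adjusted p = 0.051).

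Among the accessory subunits, NDUFA12, which belongs to the N module, had the largest change. It had 108, 116 and 213 CPM in F0 treated males, against 60.7, 87.0 and 103 CPM in F0 control males, without overlap. Its log2 fold change was 0.67 (SE 0.17, edgeR adjusted p = 0.030). NDUFS5, an accessory subunit of the membrane arm, had 135, 143 and 245 CPM in treated males, against 91.2, 106 and 129 CPM in control males. These groups did not overlap either, and the change was 0.57 (SE 0.14, edgeR adjusted p = 0.026). NDUFB4, also of the membrane arm, had 136, 140 and 229 CPM in treated males, against 105, 113 and 128 CPM in control males, again without overlap (log2 fold change 0.46, SE 0.12, edgeR adjusted p = 0.031). In all, 4 of 48 members were without overlap and higher (NDUFV1, NDUFA12, NDUFS5, NDUFB4), against 3.01% of all genes, and 0 were without overlap and lower, against 2.59%. In NDUFA12, NDUFS5 and NDUFB4 treated male 16 stood far above the other 5 treated males.

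The gene ndufa9b had 23.1, 27.4 and 28.3 CPM in F0 treated males, against 16.9, 19.8 and 24.0 CPM in F0 control males, and treated male 16 did not stand apart in it. Its log2 fold change was 0.41 (SE 0.11, edgeR adjusted p = 0.031). It shares its name with NDUFA9 and a later gene table lists it as a pseudogene, so reads of the pair may be split and both are uncertain. By its symbol alone ndufa9b is counted among the accessory subunits that rose, and the same caution holds for its values in the F2 fish. Modules were set by a list that counted NDUFA9, ndufa9b and NDUFAB1, which rose, to the membrane arm. Their place in the enzyme was not checked, and another placing would change the counts by module. By this list, 4 of 9 tested N module members, 1 of 5 Q module members and 8 of 23 membrane arm members rose. Their median log2 fold changes were 0.40, 0.35 and 0.37.

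The assembly factors had a median log2 fold change of 0.25 in F0 males, and all 8 were above 0. NDUFAF3 had 31.4, 48.5 and 83.2 CPM in treated males, against 22.1, 31.5 and 44.6 CPM in control males. The groups overlapped (log2 fold change 0.61, SE 0.22, edgeR adjusted p = 0.087). NDUFAF4 had 9.68, 14.6 and 22.4 CPM in treated males, against 7.18, 11.3 and 13.6 CPM in control males (0.49, SE 0.20, edgeR adjusted p = 0.12). NDUFAF6 and NDUFAF7 had log2 fold changes of 0.26 (SE 0.13) and 0.24 (SE 0.17), with edgeR adjusted p-values of 0.21 and 0.39. NDUFA4L2, a relative of NDUFA4, had the lowest change of all members at -0.14 (SE 0.17, edgeR adjusted p = 0.60).

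None of the 7 core subunits encoded by mitochondrial DNA passed between F0 treated and control males. In edgeR 0 of 7 passed, and the changes lay between -0.54 and 0.40 with a median of 0.09. Of these changes 5 were above 0 and 2 below. The largest was that of MT-ND3 (0.40, SE 0.15, edgeR adjusted p = 0.093). MT-ND1 had 2914, 3491 and 3904 CPM in treated males, against 2949, 3124 and 3770 CPM in control males, and the groups overlapped over nearly their whole range (0.09, SE 0.09, edgeR adjusted p = 0.54). The lowest change was that of mt-nd4l (-0.54, SE 0.17, edgeR adjusted p = 0.057). Of 11 further assembly genes without the nduf name, 0 passed, and the lowest adjusted p was that of lyrm2 (0.39, SE 0.13, edgeR adjusted p = 0.065).

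**Figure D3:**
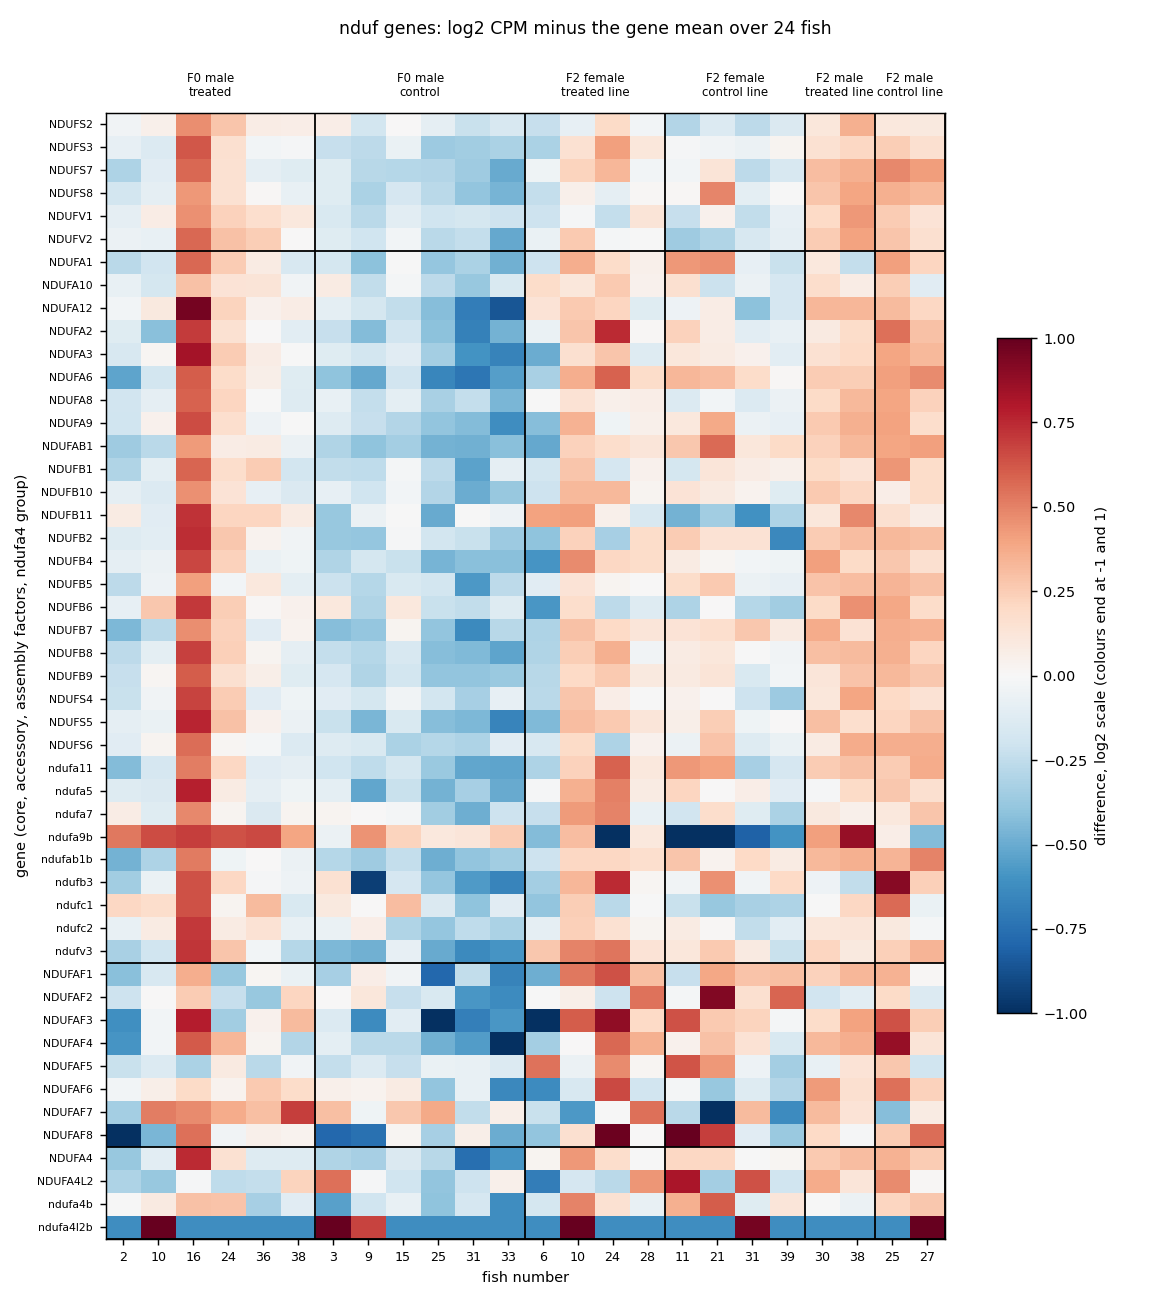
Log2 CPM of the 49 members other than NDUFS1, each minus its mean over the 24 fish, with genes in rows by role and fish in columns by group; colours end at -1 and 1. Treated male 16 is high in most members, and the median over the members was 0.58 in it, against -0.45 to -0.11 in the F0 control males.

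**Figure D4:**
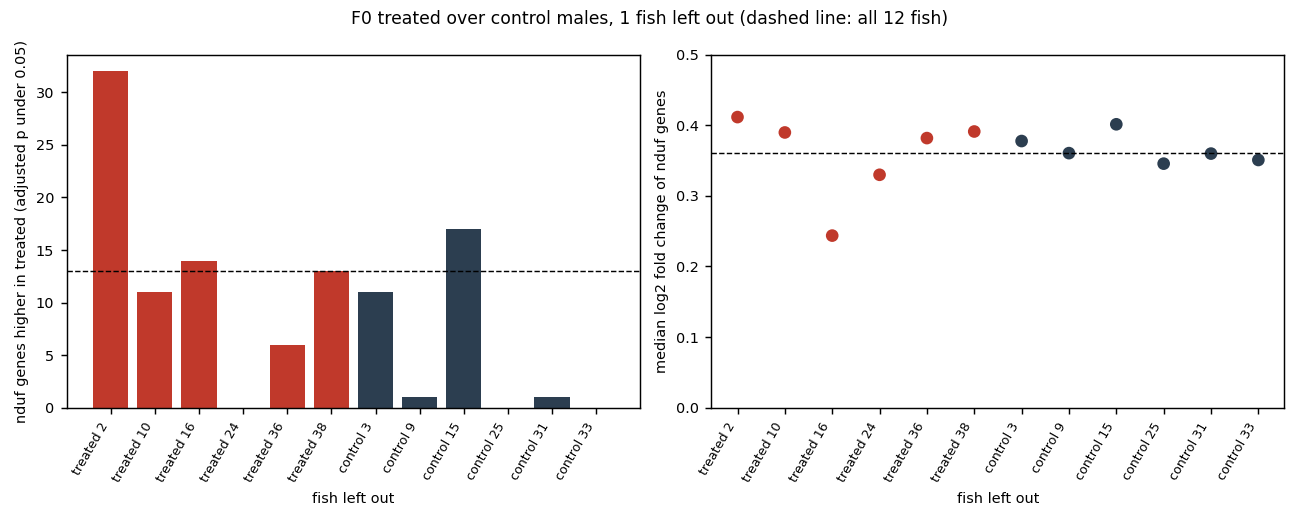
Number of members higher in F0 treated males (left) and median log2 fold change of the members (right) when 1 of the 12 F0 males was left out. Dashed lines are the values with all fish, 13 and 0.36. The count fell to 0 without treated male 24, control male 25 or control male 33, where 515, 748 and 440 of all genes passed.

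In the unexposed F2 females, no complex I gene passed the test between the lines. Of 48 members 0 passed in edgeR and 0 in DESeq2, against 0% of all 19463 genes in edgeR and 34 genes in DESeq2. In edgeR 3 members reached an unadjusted p under 0.05, against 7.65% of all genes. The log2 fold change was above 0 in 33 members, against 47.9% of all genes. Its median was 0.06, and the members' SE had a median of 0.15. NDUFB11, an accessory subunit of the membrane arm, had 44.4, 44.7, 34.8 and 30.0 CPM in the treated line, against 24.2, 26.4, 22.1 and 27.1 CPM in the control line. The lines did not overlap (log2 fold change 0.62, SE 0.18, edgeR adjusted p = 0.47). NDUFV2 had 125, 158, 129 and 131 CPM in the treated line, against 102, 106, 118 and 123 CPM in the control line (0.27, SE 0.12, edgeR adjusted p = 0.63). With NDUFA8, these were the 3 of 48 members without overlap and higher, against 1.34% of all genes; 0 were without overlap and lower, against 2.46%. The changes of ndufa9b and ndufv3 were 0.80 (SE 0.33) and 0.29 (SE 0.14), with edgeR adjusted p-values of 0.60 and 0.67. Treated females 6 and 24 and control females 11 and 21 had fewer than 19000 genes detected at equal depth. In a fit chosen after seeing the data, without these fish, the median was 0.23 and the count still 0, and 5 of 18662 genes passed. Few females were left in each line, so this count says little. The share of reads outside genes was 18.7 to 20.8% in the treated line and 21.6 to 23.5% in the control line of F2 females, again without overlap. With it in the fit, the changes of NDUFB11, NDUFV2 and NDUFA8 were 0.50 (SE 0.29), 0.13 (SE 0.19) and 0.03 (SE 0.17). That of ndufv3 was larger than without it, at 0.57 (SE 0.22), and that of ndufa9b was -0.05 (SE 0.50). None of the 48 members passed in that fit, and the median was 0.05. Without it in the fit, all 10 photoreceptor markers tested had a change above 0 (median 1.64), and none passed. Their summed level was 21.5 to 946 CPM in the treated line and 9.69 to 297 CPM in the control line. The part of these markers in the line comparison was not tested.

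In the F2 males 0 of 48 members passed in edgeR and 0 in DESeq2, against 0% of all genes in edgeR. DESeq2 called 6 of all 19463 genes. An unadjusted p under 0.05 was reached by 1 member, against 1.4% of all genes, and 16 had a change above 0, against 50.5% of all genes. The median was -0.05. The accessory subunit ndufb3 had 149 and 130 CPM in the treated line, against 291 and 183 CPM in the control line (log2 fold change -0.77, SE 0.30, edgeR adjusted p = 1). With 2 males a line the spread was taken from all 12 F2 fish. Over both F2 sexes, with sex in the fit, 0 of 48 passed in edgeR and in DESeq2, against 0% of all genes in edgeR. DESeq2 called 26 of all 19463 genes. In edgeR 3 members had an unadjusted p under 0.05 (7.69% of all genes), and the median was 0.03. NDUFB11 and ndufa9b had the lowest p, with changes of 0.47 (SE 0.15) and 0.80 (SE 0.26) and edgeR adjusted p-values of 0.43 each. NDUFV2 and NDUFAB1, the mitochondrial acyl carrier protein, had changes of 0.21 (SE 0.10) and -0.23 (SE 0.13), with edgeR adjusted p-values of 0.63 and 0.75.

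The effect of the exposed arm in F0 males and that of the treated line in the F2 fish were also compared by interaction contrasts. None of the members differed between F2 females and F0 males (0 of 49; 10 at an unadjusted p under 0.05), between F2 males and F0 males (0 of 49; 11) or between F2 females and F2 males (0 of 48; 1), and DESeq2 also gave 0 in each. Over all genes edgeR called 0.00474%, 0% and 0%, and 11.6%, 6.18% and 1.5% reached an unadjusted p under 0.05. DESeq2 called 68, 11 and 0 of all genes. The difference was above 0 in 7, 3 and 39 members in the same order, against 47.2%, 50.9% and 48.3% of all genes. The median differences were -0.30, -0.43 and 0.09. The lowest p in these contrasts were those of NDUFAB1 (-0.67, SE 0.20, edgeR adjusted p = 0.31) and NDUFS8 (-0.52, SE 0.17, edgeR adjusted p = 0.33) for F2 females minus F0 males. For F2 males minus F0 males they were those of ndufb3 (-1.25, SE 0.39, edgeR adjusted p = 0.79) and NDUFA1 (-0.75, SE 0.29, edgeR adjusted p = 0.79). For F2 females minus F2 males they were ndufb3 (0.85, SE 0.37) and NDUFA2 (0.55, SE 0.29), both with an edgeR adjusted p that rounds to 1. The F0 arm effect is therefore not shown to differ from the F2 line effect in any member.

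Between the F2 sexes, no member passed, although most were lower in females. Of 48 members 0 passed in edgeR and 0 in DESeq2, against 0.0154% of all genes in edgeR and 12 genes in DESeq2. In edgeR 14 members reached an unadjusted p under 0.05, against 5.17% of all genes. The log2 difference, female minus male with line in the fit, was below 0 in 41 of 48 and above 0 in 7, against 45.7% of all genes above 0, and its median was -0.19. NDUFB6, an accessory subunit of the membrane arm, averaged 47.0 ± 7.71 CPM in females and 67.0 ± 6.38 CPM in males (SD, n = 8 and 4), without overlap (-0.50, SE 0.14, edgeR adjusted p = 0.80). NDUFV1 averaged 275 ± 28.5 CPM in females and 353 ± 32.3 CPM in males, also without overlap (-0.35, SE 0.10, edgeR adjusted p = 0.80). NDUFV2 and ndufa9b had differences of -0.35 (SE 0.10) and -0.86 (SE 0.27), each with an edgeR adjusted p of 0.80. In all, 5 of 48 members were without overlap and lower in females (NDUFA8, ndufab1b, NDUFB5, NDUFB6, NDUFV1), against 0.426% of all genes, and 0 were higher, against 0.17%. Core subunits were below 0 in 6 of 6 and assembly factors in 4 of 8. Further fits were chosen after seeing the data, and no member passed in them. Without the 4 females with fewest genes detected the median was -0.21. With the share of reads outside genes in the fit the median was -0.16. The differences were then -0.36 (SE 0.18) for NDUFB6, -0.20 (SE 0.12) for NDUFV1, -0.25 (SE 0.13) for NDUFV2 and -0.44 (SE 0.32) for ndufa9b.

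F2 males had higher levels of some complex I genes than F0 males. Generation cannot be told apart here from any rearing, age or library handling that differed with it. Reads aligned to more than 1 place made up 11.5 to 28.0% in F2 males of the treated line and 8.78 to 17.0% in those of the control line. In F0 males they made up 7.21 to 13.6% (treated) and 5.98 to 8.63% (control). The part of this library property in the result was not tested. Of 49 members tested, 7 were higher and 0 lower, which is 14.3% higher against 2.24% of all 21082 genes (2.04% were lower and 4.28% passed in either direction). The log2 difference was above 0 in 47 members, against 46.3% of all genes, with a median of 0.34. Those higher were the Q module core subunits NDUFS7 and NDUFS8 and the accessory subunits ndufab1b, NDUFAB1, NDUFB5, NDUFA6 and NDUFB7. The acyl carrier protein gene ndufab1b had 165 and 169 CPM in the F2 treated line and 167 and 187 CPM in the F2 control line. In F0 males it had 95.0, 127 and 189 CPM in the treated group (lowest, median, highest) and 94.0, 104 and 112 CPM in the control group. Treated male 16 was the one F0 male above the lowest F2 male (log2 difference 0.56, SE 0.12, edgeR adjusted p = 0.012).

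NDUFS7, an iron-sulfur core subunit, had 219 and 226 CPM in F2 males of the treated line and 247 and 236 CPM in those of the control line, against 143 to 263 CPM in F0 treated and 124 to 163 CPM in F0 control males (0.51, SE 0.11, edgeR adjusted p = 0.016). NDUFAB1 and NDUFB5 had differences of 0.53 (SE 0.12, edgeR adjusted p = 0.017) and 0.42 (SE 0.10, edgeR adjusted p = 0.020). No member was without overlap between the generations, against 0.645% of all genes higher and 0.555% lower. Between the control arms alone 19 members were higher and the median was 0.56, where 1491 of 21082 genes passed. Between the treated arms alone 0 members and 0 of all genes passed in edgeR, and the median was 0.13. The test of the difference between these is the interaction contrast of F2 and F0 males above, which 0 of 49 members passed. The count of members higher in F2 males was 28 without F0 treated male 16, where 2315 of all genes passed, against 902 with all fish. Without any other F0 male it was 5 to 7 (489 to 882 genes passed). It was 1 without F2 treated-line male 30 (178 genes passed). It was 0 without F2 treated-line male 38 (10 genes), F2 control-line male 25 (32 genes) or F2 control-line male 27 (177 genes). Of the mitochondrially encoded subunits 3 of 7 were higher in F2 males (MT-ND1 by 0.44, MT-ND2 by 0.51, MT-ND5 by 0.41), as were 2 of 11 further assembly genes (ECSIT by 0.55, COA1 by 0.66). Of 11 neuron markers tested (IDs matched to 8 names), 2 were lower in F2 males and none higher, 10 had a difference below 0 and the median was -0.50. Of these IDs, 1 was under 1 CPM throughout the F2 males of the treated line and 2 throughout those of the control line. The summed level of the neuron markers was 5580 to 5924 CPM in F2 males of the treated line and 5084 to 5687 CPM in those of the control line, against 5315 to 6998 CPM in F0 males. Radial glia, microglia and muscle markers had 1 of 7, 1 of 4 and 1 of 5 tested higher and none lower, with median differences of 0.33, 0.26 and 0.55. Of 11 photoreceptor markers tested none passed, 10 had a difference below 0 and the median was -0.75. No tested marker of oligodendrocytes, erythrocytes or epidermis passed. The part of these markers in the result was not tested.

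**Figure D5:**
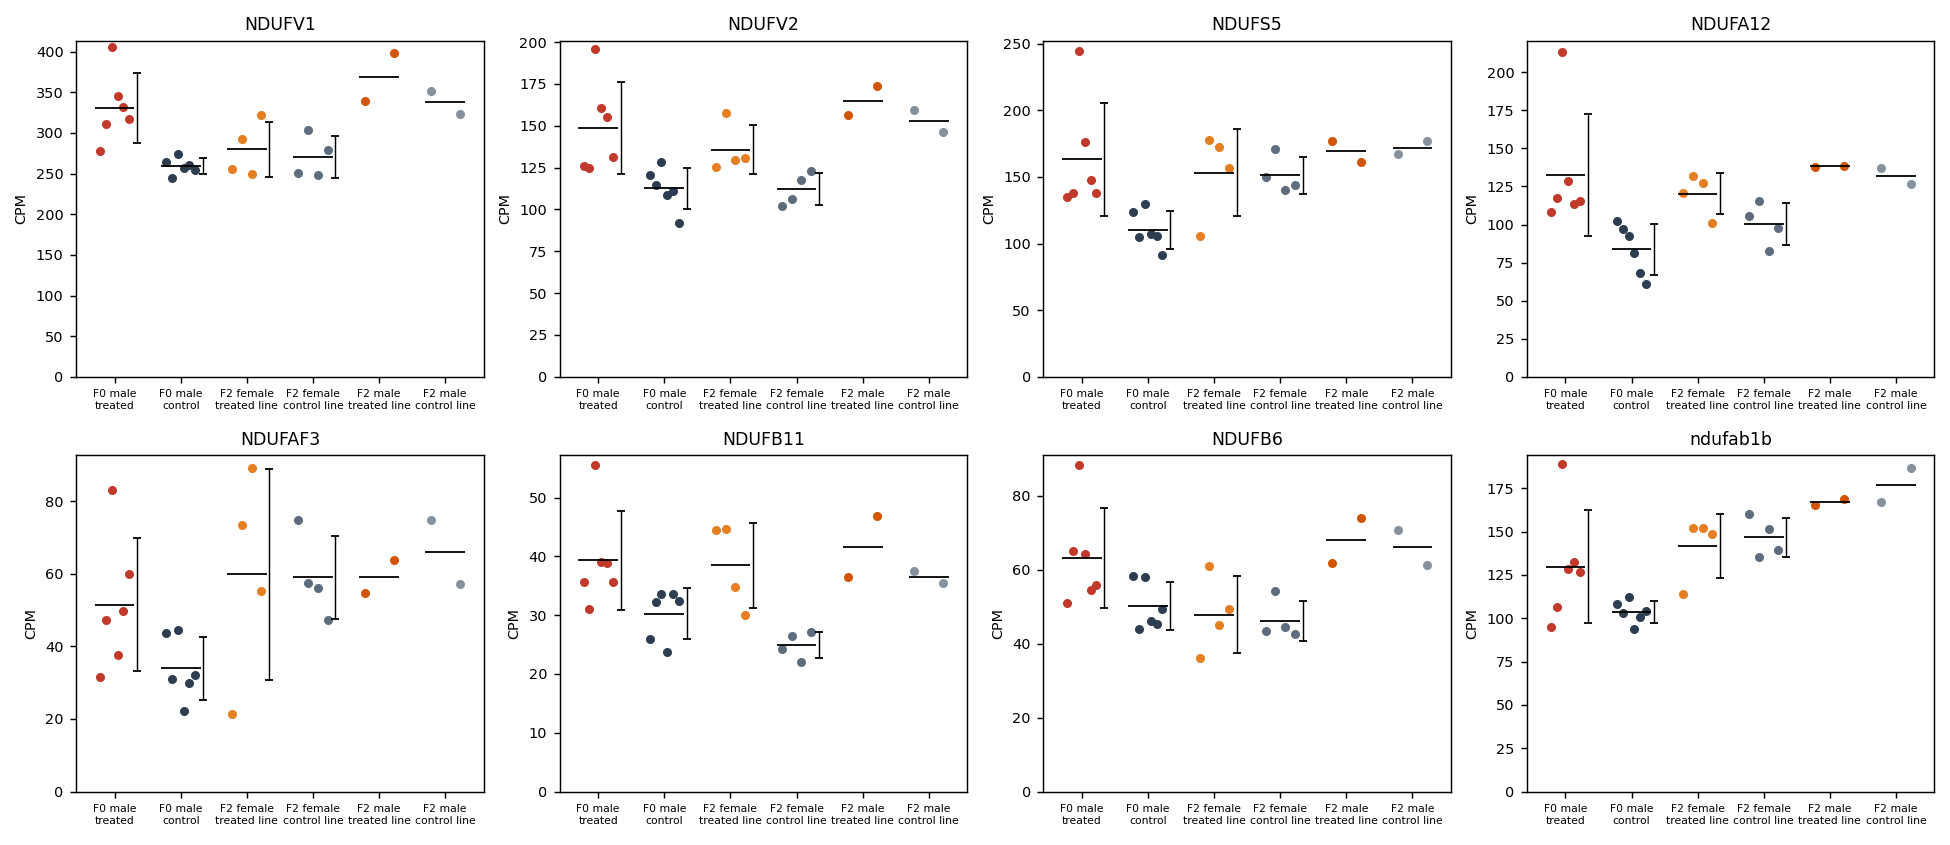
CPM of 8 members in each fish of the 6 groups, with the axis from 0; lines are group means and error bars SD (groups of more than 2 fish). NDUFV1, NDUFS5 and NDUFA12 did not overlap between F0 treated and control males, NDUFB11 did not overlap between the F2 female lines, and ndufab1b was at or above 165 CPM in all 4 F2 males.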

How the data were processed

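The authors deposited 1 table of unnormalised gene counts for each of 31 runs of 24 fish. Flash-frozen brains and the TruSeq mRNA kit were used, per the labels' protocols. The submitters' processing notes name HTSeq 0.11.2, STAR 2.7, cutadapt 2.1, bcl2fastq, DESeq2 1.24.0 and the build GRCz11 (danRer11). The strand setting and the annotation release were not given in the sources used here, and genes that overlap or lie antisense are therefore uncertain.

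Both runs were summed for 7 fish: the chi-square per degree of freedom, over genes of 20 or more reads in the pair, was 1.03 to 1.19 between such runs and 18.3 to 115 between fish of 1 group. Lines that name no gene were left out; among uniquely aligned reads, 16.6 to 23.5% lay outside genes. Symbols were matched to 29201 of 32520 IDs. The fish is the replicate.

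The test was edgeR's quasi-likelihood F test (version 4.0.16 in R 4.3.3, robust fit), with TMM factors, filterByExpr with a minimum count of 10 and Benjamini-Hochberg adjustment over all genes tested. Separate fits held the 12 F0 males and the 12 F2 fish, and contrasts across generations over 24 fish. Deviations per fish used log2 CPM with a prior count of 2. Alternatives were DESeq2 1.42.0, RLE factors, no filter, first runs, other sets of fish, covariates and each fish left out. Tables and figures used Python 3.11.15, numpy 2.4.6, pandas 2.3.3 and matplotlib 3.10.9.

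Members, lists and tests were chosen with earlier results of these data known. The rule that set the members was the symbol alone, and no measured value entered it. Genes given with their values in F0 males were the 4 with the lowest p among core subunits, accessory subunits and assembly factors, and the largest rise and fall; elsewhere they were the 4 with the lowest p (2 in F2 males and in each difference of effects). Members counted as called or as without overlap were also named.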

Additional observations from a re-analysis of the deposited data

Results flagged for a closer look

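Single fish stood far from the rest of their group in 11 of 100 groups of values examined (25 measures in the F0 male and F2 female groups). Chance would do so in about 1 of 20 groups taken singly, but the members move together within a fish, so these groups are not independent and the share is not to be set against that rate. Of the 11, 5 were F0 treated male 16, which had 225 CPM of NDUFS3 (the other treated males 133 to 164), 245 CPM of NDUFS5 (135 to 176), 213 CPM of NDUFA12 (108 to 128), 229 CPM of NDUFB4 (136 to 170.0) and 55.5 CPM of NDUFB11 (31.0 to 39.0). This fish also had the fewest genes detected among F0 males at equal depth, 18694 against 19876 to 21313 in control males.

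In F0 control males, fish 15 had 74.5 CPM of ndufv3 (the others 50.7 to 57.7), fish 31 had 117 CPM of NDUFB5 (143 to 157) and fish 9 had a summed level of the mitochondrial ND genes of 12897 CPM (9176 to 10444). In F2 females of the control line, fish 21 had 262 CPM of NDUFS8 (174 to 188) and 54.2 CPM of NDUFB6 (42.5 to 44.4). In F2 females of the treated line, fish 6 had 114 CPM of ndufab1b (149 to 152).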

How the results depend on the processing

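In F0 males the count of members called was 13, with 2060 of all genes called. It was 22 with DESeq2 (3193 genes) and 8 with all 24 fish in the fit (787 genes). With genes detected at equal depth as a covariate (chosen after seeing the data) it was 1 (773 genes). With the outside-gene read share as covariate it was 0 (0 genes). Without treated male 16 and control males 9 and 33 it was 0 (42 genes). Leaving out 1 fish gave 0 to 32 members (440 to 3217 genes) and a median of 0.24 to 0.41. With that share the median reversed to -0.15. Genes given with their values that reversed with it were NDUFV2 (-0.026), NDUFS8 (-0.066), NDUFS3 (-0.10), NDUFS5 (-0.045), NDUFA12 (-0.10), NDUFB4 (-0.071), NDUFAF3 (-0.26), NDUFAF4 (-0.36), NDUFAF6 (-0.019) and NDUFAF7 (-0.00089), and in F2 females ndufa9b (-0.049). The other called members below 0 in F0 males were NDUFA3 (-0.18), NDUFA6 (-0.13), NDUFA9 (-0.13), NDUFB8 (-0.17) and NDUFB9 (-0.15). The SE of these changes ran from 0.11 (NDUFB9) to 0.50 (ndufa9b in F2 females). None of those in F0 males reached an unadjusted p under 0.05 in edgeR, so their signs are not settled. Called members that stayed above 0 with that share were NDUFV1 (0.065, SE 0.11), NDUFAB1 (0.0038, SE 0.14) and ndufa9b (0.29, SE 0.18), and none of them passed. Between F2 and F0 males the count was 7, with 902 of all genes called. With the outside-gene read share as a covariate it was 16 (1445 genes). It was 24 without treated male 16 and control males 9 and 33 (1552 genes) and 18 with the 16 males alone (3278 genes). In contrasts chosen after seeing the data, it was 19 in the control arms (median 0.56, 1491 genes). In the treated arms, likewise chosen, it was 0 (median 0.13, 0 genes). Leaving out 1 fish gave 0 to 28 (10 to 2315 genes). The causes were not tested. Of 226 counts and medians recomputed over the members, 201 stayed within 1.5 times the count or within the spread between fish. Counts that were 0 and stayed 0 are among the 201. The spread allowed for the median in F0 males was wide (SD 0.22). The total therefore does not measure how stable the counts of called members were. No paired analysis was possible because the arms compared share no fish numbers, and a number shared between F0 and F2 is a different fish. NDUFS1 and ndufa4l2b had too few reads to test within a generation, and the reason was not tested.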
